A study of Drosophila melanogaster with 6 samples.

Results

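Small nucleolar RNAs (snoRNAs), small Cajal body RNAs (scaRNAs) and small nuclear RNAs (snRNAs) were taken from a table of gene counts by symbol, as every feature whose symbol begins with snoRNA:, scaRNA: or snRNA:. They numbered 336 of 23882 features, namely 287 snoRNAs, 17 scaRNAs and 32 snRNAs, and no measured value entered the choice. The counts came from S2 cells, an established line of Drosophila melanogaster embryonic origin that takes up long double-stranded RNA (dsRNA) and silences the matching gene. RNA was taken after 3 days of treatment and sequenced as polyadenylated RNA, to ask what loss of the DEAD-box RNA helicase Hlc does to transcript levels. There were 2 libraries with dsRNA 2 against Hlc, 2 with dsRNA 3 against Hlc, and 2 control libraries. The control cells also received a dsRNA, matching beta-galactosidase, a bacterial gene that flies lack. Each group is described as biological replicates, but whether they came from separate cultures is not given in the sources used here, so the p-values measure the spread between these libraries. The depletion was partial and lay within 1 cell line.

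Both box classes of snoRNA work as guides inside small ribonucleoproteins. Box H/ACA RNAs direct the pseudouridine synthase Nop60B and box C/D RNAs direct the methyltransferase Fib to chosen bases of ribosomal RNA, and scaRNAs do the same for spliceosomal snRNAs in Cajal bodies. In flies most of them lie in introns of host genes and are cut out of the spliced intron. Spliceosomal snRNAs and 7SK have promoters of their own, and the Integrator complex forms the 3' ends of the spliceosomal snRNAs made by RNA polymerase II. The mature forms carry no poly(A) tail, whereas poly(A) tails mark some precursors and RNAs destined for the nuclear exosome. The counts below therefore describe what a poly(A) library held of these RNAs, and not the pool of mature RNA. Reads from a mature RNA, an extended precursor and an unspliced host intron cannot be told apart in them.

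Library totals were between 56195472 and 84283999 counts. Levels are given as CPM, counts scaled to a common library size after TMM scaling, a correction for differences in library makeup, and 1 count was worth between 0.0102 and 0.0205 CPM. The TMM factors were between 1.13 and 1.16 in the Hlc dsRNA libraries, against 0.751 and 0.778 in the controls, so the scaling bears on every level below. Hlc itself stood at 18.7 ± 1.80 CPM in the 4 Hlc dsRNA libraries and at 316.5 ± 1.15 CPM in the 2 controls (mean ± SD here and below, n = 4 with Hlc dsRNA and n = 2 in control). Of the markers of plasmatocytes, the blood cells that S2 cells resemble, Col4a1, vkg, Ppn, srp and eater were present in every library. Hml was at 0.448 ± 0.23 CPM with Hlc dsRNA and 0.697 ± 0.35 CPM in control, and NimC1 at 0.0612 ± 0.07 CPM with Hlc dsRNA and 0.109 ± 0.01 CPM in control. The traffic-jam gene tj of ovarian somatic cells and PPO2 of crystal cells were at 0 counts in all 6 libraries. Of 4 markers of crystal cells and lamellocytes 1, lz, had enough counts to test, and it was not called (log2 fold change -2.335). Of 8 plasmatocyte markers tested, 5 rose and 1, srp, fell, where 32.2% of all features tested were called higher and 32.6% lower. Among markers of other cell types, the ovarian genes piwi and fs(1)Yb rose and Fas3 fell (0.604 ± 0.19 CPM with Hlc dsRNA, 39.7 ± 1.07 CPM in control), and of 3 neuronal markers tested only elav was called (log2 fold change 0.53). The part of these shifts in the small RNA results was not tested.

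The members were sparsely sampled. Their median was 15 counts over all 6 libraries together, 48 were at 0 everywhere, and 147 had 10 counts or fewer. Only 63 exceeded 100 counts. The filter on low counts left 104 for testing (89 snoRNAs, 4 scaRNAs and 11 snRNAs), and 232 were not tested. Of the 89 tested snoRNAs, 49 passed the filter only through the Hlc dsRNA libraries, and for them a rise was built into the selection. Box class was read from the symbol, which gave 137 C/D, 118 H/ACA and 32 snoRNAs with no class in the name.

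As a group, snoRNAs were higher in the Hlc dsRNA libraries and snRNAs were lower. The 287 snoRNAs together took 57.7 and 61.9 CPM with dsRNA 2 and 55.7 and 54.0 CPM with dsRNA 3, against 29.3 and 27.6 CPM in the controls. The 32 snRNAs together took 4.54 and 5.24 CPM with dsRNA 2 and 4.22 and 3.65 CPM with dsRNA 3, against 15.6 CPM in each control. Neither sum overlapped between the Hlc dsRNA libraries and the controls, and the sums moved in opposite directions. The ratio of the means was 2.02 for snoRNAs and 0.283 for snRNAs. On library totals without TMM scaling those ratios were 3.02 and 0.423, so both directions held on that scale too. In these bulk libraries fewer cells carrying an RNA and less of it per cell cannot be told apart.

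The ratio of snoRNA counts to snRNA counts needs no scaling between libraries. It was 12.7 and 11.8 with dsRNA 2 and 13.2 and 14.8 with dsRNA 3, against 1.88 and 1.76 in the controls. Per kilobase of annotated length, the snoRNAs stood at 1.79 ± 0.10 CPM per kb with Hlc dsRNA and 0.848 ± 0.04 CPM per kb in control, over the 257 with a length in the annotation. The 31 snRNAs with a length stood at 0.874 ± 0.13 CPM per kb with Hlc dsRNA and 3.12 ± 0.01 CPM per kb in control. The order of both classes by level per length was thus reversed between the groups.

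Among the box classes, H/ACA RNAs made up most of the snoRNA counts in every library. Their sum was 42.5 ± 3.42 CPM with Hlc dsRNA and 19.1 ± 0.39 CPM in control, a ratio of 2.22. The C/D sum was 9.97 ± 0.56 CPM with Hlc dsRNA and 6.39 ± 0.43 CPM in control, a ratio of 1.56. H/ACA counts over C/D counts came to 3.99 and 4.91 with dsRNA 2 and 3.92 and 4.28 with dsRNA 3, against 2.90 and 3.1 in the controls. These ratios did not overlap, nor did they without the most abundant H/ACA RNA, Psi18S-531 (3.02 to 3.68 with Hlc dsRNA, 2.42 and 2.64 in control). Without the most abundant C/D RNA as well, Me28S-U1230, they overlapped (3.32 to 4.29 with Hlc dsRNA, 3.26 and 3.55 in control). Each class without its own leading RNA had a ratio of Hlc dsRNA to control of 2.02 for H/ACA and 1.85 for C/D. Per kilobase the H/ACA RNAs were at 2.51 ± 0.20 CPM per kb with Hlc dsRNA and 1.13 ± 0.03 in control, and the C/D RNAs at 0.864 ± 0.06 with Hlc dsRNA and 0.460 ± 0.04 in control. The scaRNA sum was 2.17 ± 0.49 CPM with Hlc dsRNA and 1.47 ± 0.37 CPM in control. The 198 snoRNAs that were not tested summed to 5.57 ± 0.50 CPM with Hlc dsRNA and 4.3 ± 0.51 CPM in control, a ratio of 1.30.

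**Figure D1:**
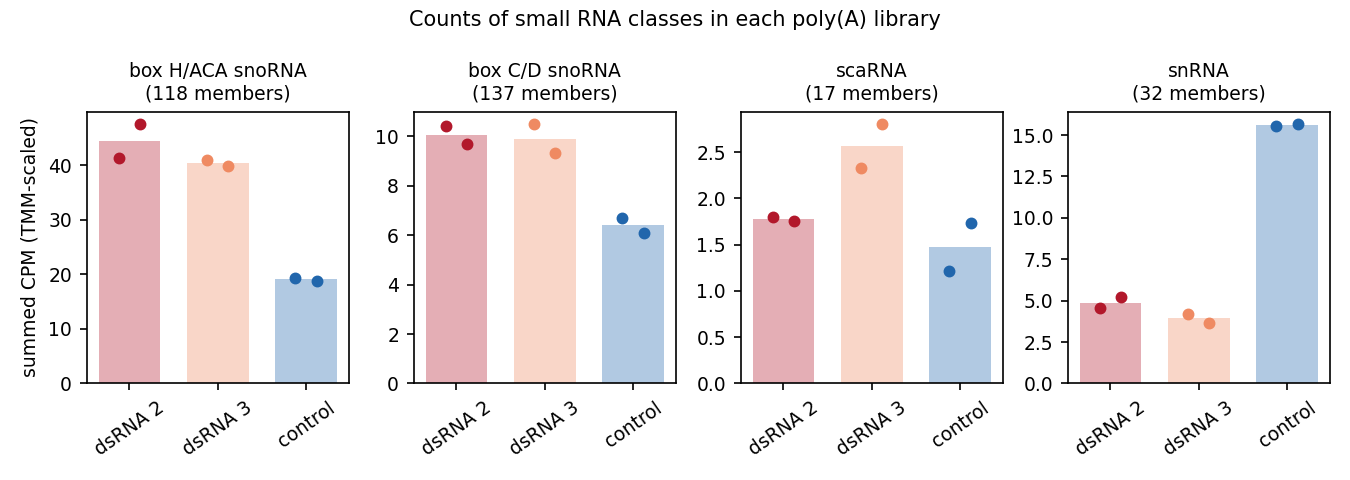
Summed CPM after TMM scaling (vertical axis) of all members of 4 classes in each library, with bars at the mean of the 2 libraries of a group and points for the libraries, Hlc dsRNA 2 and 3 left of control. The H/ACA and C/D sums are higher and the snRNA sum is lower in every Hlc dsRNA library than in both controls, while the scaRNA sums nearly meet (1.75 CPM in the lowest Hlc dsRNA library, 1.74 CPM in the highest control).

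Single members were tested in edgeR by its quasi-likelihood F test, against a background in which much of the transcriptome was called. In the contrast of both Hlc dsRNAs with control, 64.8% of the 11293 features tested passed a Benjamini-Hochberg adjusted p of 0.05, with 32.2% higher and 32.6% lower, and the median log2 fold change of all features was 0.04. Of the 89 snoRNAs tested, 37 rose, 2 fell and 50 were not called, with a median log2 fold change of 1.36. Of the 53 H/ACA snoRNAs, 26 rose and 1 fell (median 1.46), and of the 26 C/D snoRNAs, 7 rose and 0 fell (median 1.18). Among those 7 only Me28S-A1322, with 41 counts over the controls, reached the filter in a control library. For the others the rise was fixed by the filter. The H/ACA count also includes snoRNAs whose rise was fixed in this way. None of the 4 scaRNAs was called. Of the 11 snRNAs tested, 9 fell and none rose (median -2.56).

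The share of snoRNAs called higher has to be read beside that background and the filter. Among the 26 snoRNAs that passed the filter on both controls, 13 rose and 2 fell, with a median of 0.80. In 16 of those 26 all 4 Hlc dsRNA libraries lay above both controls, and in 5 all lay below, where the same held for 35.3% and 41% of the 9713 features that passed on both controls. Over all 89 snoRNAs the numbers were 63 and 5, beside 36.2% and 35.4% of all features tested, but for the 49 that passed only through the Hlc dsRNA libraries the direction was fixed by the filter. In 9 of the 11 snRNAs all 4 Hlc dsRNA libraries lay below both controls. For the snRNAs 10 of the 11 had passed the filter on both controls, 4 of them only through the controls. For those 4 a fall was built into the selection. Leaving out any 1 of the 6 libraries lowered the number of snoRNAs called higher, to 19 and 17 without dsRNA 2 replicate 1 and 2, to 16 and 21 without dsRNA 3 replicate 1 and 2, and to 20 without either control. Without dsRNA 3 replicate 1 all 9 snRNA calls held. Without any other single library 8 of the 9 held and the call of LU was lost, and U5:14B, not tested with all libraries, was called lower in 4 of those 5 fits.

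**Figure D2:**
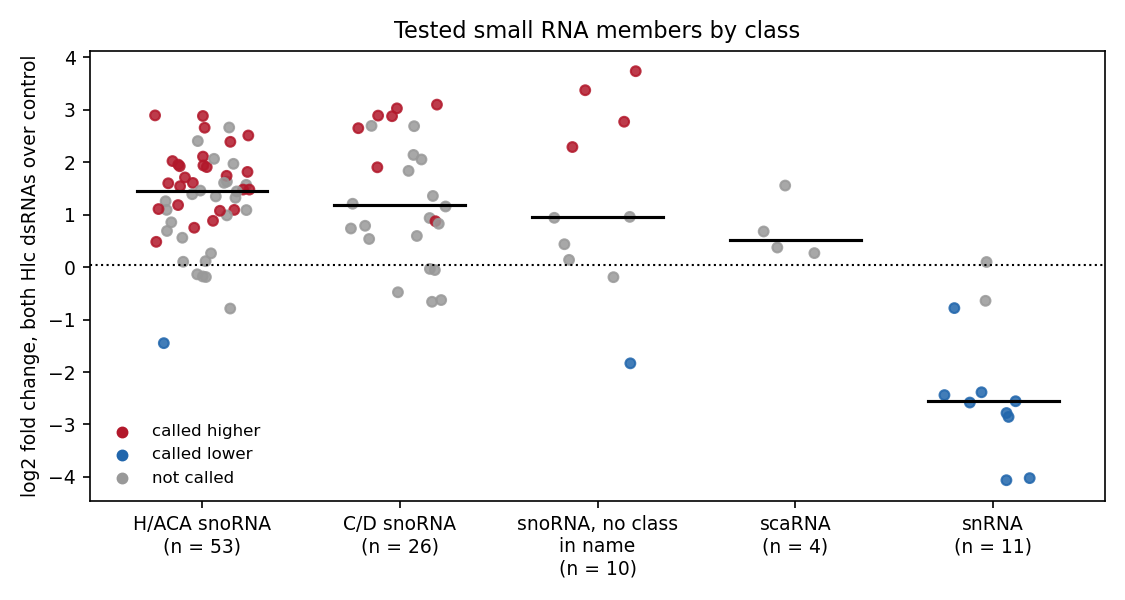
Log2 fold change of both Hlc dsRNAs over control (vertical axis) for each tested member, by class, with the class median as a bar and the median of all features tested (0.04) as a dotted line. Red points were called higher, blue points lower and grey points were not called at an adjusted p of 0.05, and the snRNAs lie below the snoRNAs apart from U4:39B, U11 and U12.

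The snRNA fall was carried by U2, U5 and 7SK. U2, which pairs with the branch point of introns, has 6 annotated copies whose reads may have been divided among them, so the sum is the safer value. It was 1.04 and 1.12 CPM with dsRNA 2 and 0.994 and 1.06 CPM with dsRNA 3, against 6.03 and 6.02 CPM in the controls. Both controls lay above every Hlc dsRNA library. The most counted copy, U2:34ABa (chromosome 2L, 13211925 to 13212116, minus strand, annotation BDGP6.54), was at 0.589 ± 0.09 CPM with Hlc dsRNA and 3.07 ± 0.31 CPM in control (-2.39 on the log2 scale, SE 0.20, adjusted p 3.77e-05). All 4 tested copies fell, with log2 fold changes between -2.86 and -2.39.

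U5, which holds the exon ends together during splicing, was the family with the deepest fall among those with a tested copy. Its 7 copies summed to 0.122 and 0.205 CPM with dsRNA 2 and 0.138 and 0.215 CPM with dsRNA 3, against 2.03 and 2.74 CPM in the controls. In counts that was 53 over the 4 Hlc dsRNA libraries and 265 over the 2 controls, with no overlap. U5:63BC (chromosome 3L, 3090801 to 3090923, plus strand) fell by 4.06 on the log2 scale (SE 0.63, adjusted p 0.000992). U5:34A (chromosome 2L, 13244848 to 13244974, plus strand) fell by 4.02 (SE 0.52, adjusted p 0.000359). These were the only U5 copies with enough counts to test with all libraries. Both passed the filter only through the controls, so a fall was built into their selection. The same held for U5:14B in the fits that left out a library and tested it. It had 1 count over the Hlc dsRNA libraries and 19 over the controls.

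7SK, the RNA that keeps the elongation kinase P-TEFb inactive, held 0.500 and 0.648 CPM with dsRNA 2 and 0.658 and 0.204 CPM with dsRNA 3, against 2.83 and 2.50 CPM in the controls. All 4 lay below both controls, and dsRNA 3 replicate 2 was the lowest. 7SK fell by 2.44 on the log2 scale (SE 0.41, adjusted p 0.00139). LU fell by 2.58 (SE 0.76, adjusted p 0.0199) on 14 counts over the Hlc dsRNA libraries and 31 over the controls. LU passed the filter only through the controls, so a fall was built into its selection. Its call was lost without dsRNA 2 replicate 1 (adjusted p 0.0653) or 2 (0.0964), dsRNA 3 replicate 2 (0.0807), or control replicate 1 (0.144) or 2 (0.0838). Unlike the other called snRNAs it lies inside a gene on its strand, FASN2, a fatty acid synthase, whose own log2 fold change was 1.05 (adjusted p 0.00404).

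The tested RNAs of the minor spliceosome, which removes a rare class of introns, were U12 and U11, and their log2 fold changes were nearer to 0. U12 held 1.98 and 2.37 CPM with dsRNA 2 and 1.57 and 1.45 CPM with dsRNA 3, against 3.02 and 3.21 CPM in the controls. The groups did not overlap (log2 fold change -0.78, SE 0.17, adjusted p 0.00486), but on library size alone U12 was at -0.20 and not called (adjusted p 0.321). U11 was at 0.274 ± 0.08 CPM with Hlc dsRNA and 0.422 ± 0.13 CPM in control and was not called (log2 fold change -0.64, SE 0.49, adjusted p 0.288). U12 alone made up 41.7% of the snRNA counts of the Hlc dsRNA libraries.

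U4:39B was not called either, at 0.139 ± 0.06 CPM with Hlc dsRNA and 0.121 ± 0.03 CPM in control (log2 fold change 0.10, SE 0.67, adjusted p 0.908). The remaining families were too thinly counted to test. The 5 copies of U1, which recognises the 5' splice site, had 53 counts over the Hlc dsRNA libraries and 35 over the controls, or 0.172 ± 0.09 CPM with Hlc dsRNA and 0.327 ± 0.09 CPM in control. The 3 copies of U6 had 36 counts with Hlc dsRNA and 21 in control. U7, which acts in histone mRNA 3' end formation, had 6 counts with Hlc dsRNA and 0 in control, and U4atac had 7 with Hlc dsRNA and 0 in control. U6atac had 1 count with Hlc dsRNA and 5 in control. The feature named snRNA:U3, a snoRNA by function, had 14 counts with Hlc dsRNA and 0 in control.

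**Figure D3:**
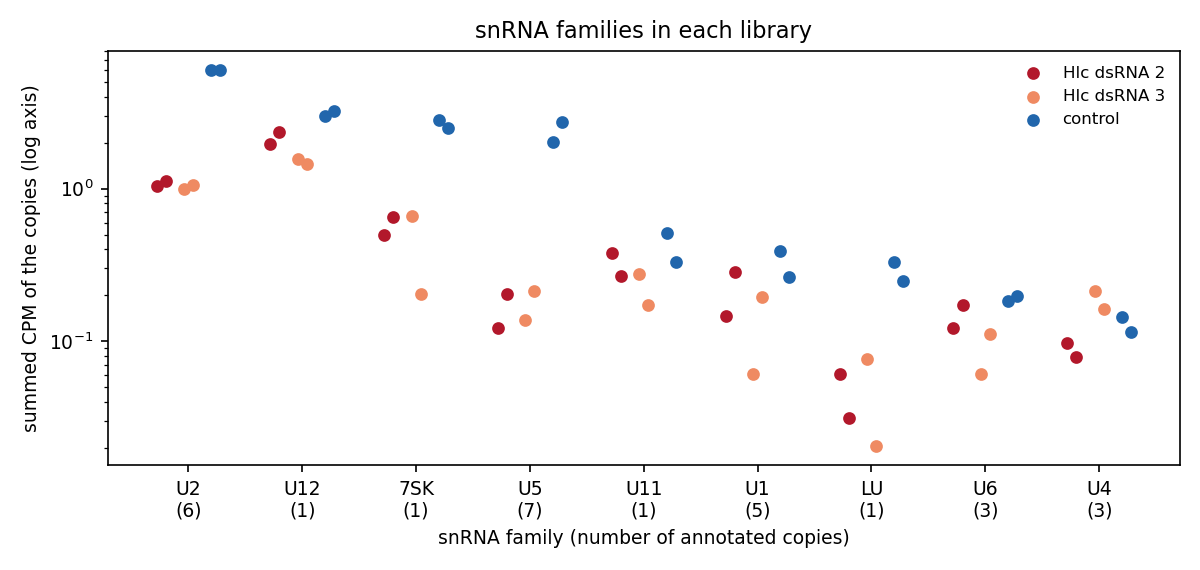
Summed CPM of the annotated copies of 9 snRNA families (vertical log axis) in each library, with Hlc dsRNA 2 and 3 left of control and the number of copies in brackets. U2, U5, 7SK and LU are well below both controls in every Hlc dsRNA library, U12 is below by less, and the U11, U1, U6 and U4 values overlap or nearly meet.

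The most abundant snoRNA was Psi18S-531, an H/ACA RNA named for a pseudouridine of 18S ribosomal RNA, on chromosome X from 763083 to 763234 (minus strand) inside the noncoding gene lncRNA:CR42491. It had 781 and 753 counts with dsRNA 2 and 613 and 837 with dsRNA 3, against 155 and 170 in the controls, or 9.84 ± 1.44 CPM with Hlc dsRNA and 2.996 ± 0.26 CPM in control. Every Hlc dsRNA library was above both controls (log2 fold change 1.71, SE 0.15, adjusted p 4.37e-05). It took 16.98% of all snoRNA counts with Hlc dsRNA and 10.5% in control. Its host rose as well, to 199 ± 49.1 CPM with Hlc dsRNA against 84.98 ± 6.48 CPM in control (log2 fold change 1.19, SE 0.08).

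A cluster of H/ACA RNAs inside RpS7, a gene for a small-subunit ribosomal protein, rose as a whole. It lies on chromosome 3R between 30206783 and 30208039 (minus strand) and holds Psi28S-2149, the copies Psi18S-1377e to Psi18S-1377a, and Psi28S-2626. All 7 were called higher, though Psi28S-2149 and Psi18S-1377e needed the Hlc dsRNA libraries to pass the filter. The 5 copies of Psi18S-1377 summed to 6.33 and 7.12 CPM with dsRNA 2 and 7.07 and 7.34 CPM with dsRNA 3, against 2.46 and 2.81 CPM in the controls. No Hlc dsRNA library came near a control. If reads were divided among these copies by the counting, the sum is not affected by it.

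Within the cluster the fitted rises spanned 0.75 to 2.89 on the log2 scale. Psi18S-1377e was at 0.838 ± 0.24 CPM with Hlc dsRNA and 0.111 ± 0.02 CPM in control (rise 2.89, SE 0.44, adjusted p 0.000909). It had 12 counts over the controls and passed the filter only through the Hlc dsRNA libraries, so its direction was fixed by the filter. Psi18S-1377d was at 1.90 ± 0.30 CPM with Hlc dsRNA and 0.503 ± 0.01 CPM in control (1.91, SE 0.25, adjusted p 0.000393). Psi18S-1377c rose by 1.61 (SE 0.28, adjusted p 0.00166) and Psi28S-2149 by 1.92 (SE 0.54, adjusted p 0.0168). Psi28S-2149 had 10 counts over the controls, too few to pass the filter on both, so a rise was favoured by its selection. The smallest rises were those of Psi18S-1377b at 1.09 (SE 0.32, adjusted p 0.019), Psi28S-2626 at 0.88 (SE 0.26, adjusted p 0.0216) and Psi18S-1377a at 0.75 (SE 0.21, adjusted p 0.0171). The 3 smallest were not called in every fit that left out a library: Psi18S-1377b was at 0.71 without control replicate 1 (adjusted p 0.072) and Psi18S-1377a at 0.68 without control replicate 2 (adjusted p 0.0717). Psi28S-2626 was at 0.57 without control replicate 2 (adjusted p 0.114) and 0.77 without dsRNA 3 replicate 1 (adjusted p 0.0568). No test of the difference between copies was made. RpS7 itself was lower, at 5168 ± 113 CPM with Hlc dsRNA and 9535 ± 933 CPM in control (log2 fold change -0.88, SE 0.07, adjusted p 2.07e-05).

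**Figure D4:**
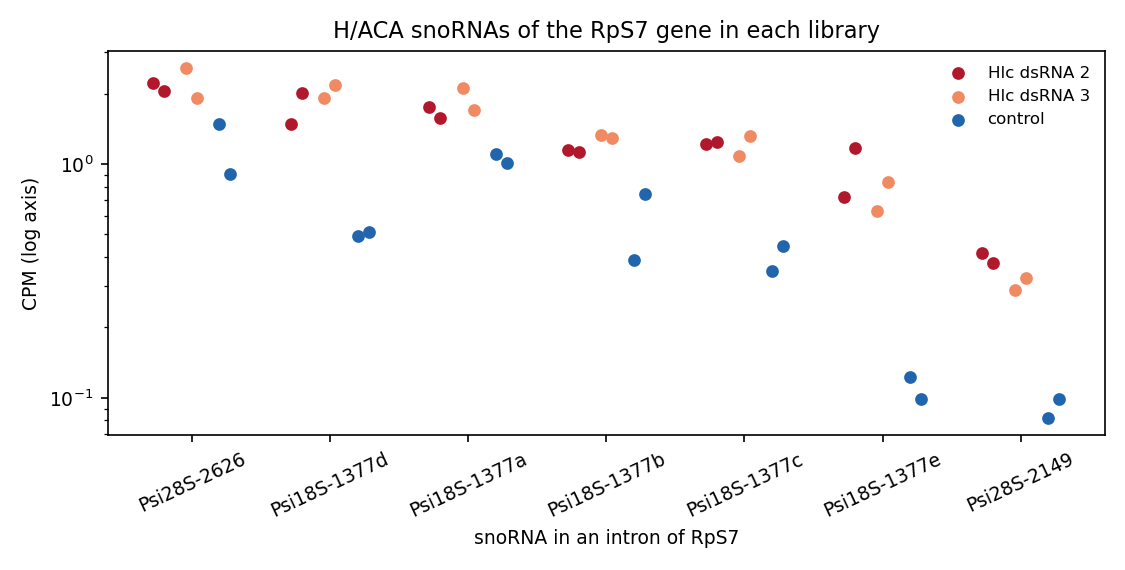
CPM (vertical log axis) of the 7 H/ACA snoRNAs within RpS7 in each library, ordered by level, with Hlc dsRNA 2 and 3 left of control. In each of the 7 every Hlc dsRNA library lies above both controls, with the widest gap at Psi18S-1377e, which passed the filter only through the Hlc dsRNA libraries. Psi28S-2149, with 10 counts over the controls, also needed the Hlc dsRNA libraries to pass.

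Among snoRNAs that averaged 50 counts or more over the Hlc dsRNA libraries, the largest called rise was that of snoRNA:229, which lies within Fib, the gene of the C/D methyltransferase. It had 74 and 60 counts with dsRNA 2 and 33 and 41 with dsRNA 3, against 5 and 0 in the controls. It passed the filter only through the Hlc dsRNA libraries, so the direction of its change was fixed by the filter. The ratio of scaled counts was 14.7 (95% exact binomial interval 6.21 to 45.8, counting error only), and the fitted log2 fold change was 3.74 (SE 0.85, adjusted p 0.00662). Every Hlc dsRNA library was above both controls. Without control replicate 2 the fitted value was 2.65 (adjusted p 0.00653), and without control replicate 1, which left the control at 0 counts, the call held (adjusted p 0.000838). Fib rose by 0.27, to 192 ± 20.2 CPM with Hlc dsRNA against 159 ± 16.6 CPM in control (adjusted p 0.01).

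Of the 10 largest rises past the same minimum of counts, those not yet described were of H/ACA RNAs in ribosomal protein genes and Hrb98DE. The C/D RNA Me28S-A1322 in eEF1alpha1 also passed that minimum. Its called rise was smaller (log2 fold change 0.88, 231 counts over the Hlc dsRNA libraries). On fewer counts, other classes and hosts had rises as large, such as the C/D RNAs Me28S-A2113 in RpL30 (log2 fold change 3.098, 140 counts in all) and Me28S-U3344b in Stt3A (2.88, 112 counts in all). Both of these C/D RNAs passed the filter only through the Hlc dsRNA libraries, so their direction was fixed by the filter. Psi28S-291, within RpL3, held 0.805 and 1.36 CPM with dsRNA 2 and 1.19 and 1.2 CPM with dsRNA 3, against 0.0821 and 0.265 CPM in the controls (log2 fold change 2.66, SE 0.50, adjusted p 0.00265). Psi18S-920, within RpL10Ab, held 1.79 and 2.40 CPM with dsRNA 2 and 1.05 and 1.44 CPM with dsRNA 3, against 0.246 and 0.364 CPM in the controls (2.39, SE 0.32, adjusted p 0.000463). Neither overlapped, and Psi18S-920 was lower with dsRNA 3 than with dsRNA 2 without a call between them (log2 difference -0.74, adjusted p 0.235). Psi28S-2179 in RpL22 rose by 1.60 (adjusted p 0.0427), Psi28S-2648 in RpL36A by 1.48 (adjusted p 0.0422) and Psi28S-3305c in Hrb98DE, the gene of a nuclear RNA-binding protein, by 1.18 (adjusted p 0.0196). Without control replicate 1 none of these 3 was called (adjusted p 0.102, 0.2 and 0.0803), while without control replicate 2 the rises of Psi28S-2179 and Psi28S-2648 were 3.16 and 2.37. Psi28S-2179 was also lost without either library of dsRNA 2 (0.0832, 0.0686) or dsRNA 3 (0.096, 0.0636), Psi28S-2648 without dsRNA 2 replicate 2 (0.0886) or dsRNA 3 replicate 1 (0.0996), and Psi28S-3305c without dsRNA 2 replicate 1 (0.0516) or dsRNA 3 replicate 2 (0.0507). Psi28S-2876 in RpS5a had the smallest called rise, 0.48 (adjusted p 0.0474), and 10 of 14 alternatives did not call it, among them all 6 that left out a library (adjusted p 0.0696 to 0.143).

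Called falls were rare, but for 49 of the 89 tested snoRNAs a rise was built into the selection. Among the 26 that passed the filter on both controls, 13 rose and 2 fell. Psi28S-2444, an H/ACA RNA within RpL11, held 0.463 and 0.584 CPM with dsRNA 2 and 0.367 and 0.562 CPM with dsRNA 3, against 1.44 and 1.27 CPM in the controls. All 4 lay below both controls (log2 fold change -1.45, SE 0.29, adjusted p 0.00376). The other was CG32479-a, within Usp10, named after its value was seen, with 35 counts over the Hlc dsRNA libraries and 43 over the controls (-1.83, SE 0.60, adjusted p 0.0299). It was not called on library size alone (adjusted p 0.1), and with any 1 library left out Psi28S-2444 was the only snoRNA called lower.

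Some abundant snoRNAs were not called. Me28S-U1230, a C/D RNA by its name, was at 1.20 ± 0.22 CPM with Hlc dsRNA and 1.65 ± 0.11 CPM in control (log2 fold change -0.48, SE 0.20, adjusted p 0.0702), and on library size alone its sign turned to 0.10. Tudor-SN-a was at 1.35 ± 0.38 CPM with Hlc dsRNA and 0.999 ± 0.11 CPM in control (0.44, SE 0.32, adjusted p 0.276). The copies of U3, a C/D RNA that acts in cleavage of the ribosomal RNA precursor rather than in methylation and that lies in no host gene, were at log2 fold changes of -0.63 (54Aa, adjusted p 0.31) and -0.66 (54Ab, adjusted p 0.241). The 3 U3 features together had 0.556 ± 0.13 CPM with Hlc dsRNA and 0.977 ± 0.16 CPM in control.

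None of the tested scaRNAs was called. MeU5-C46 was at 0.871 ± 0.21 CPM with Hlc dsRNA and 0.707 ± 0.22 CPM in control (log2 fold change 0.27, adjusted p 0.465). MeU2-48 was at 0.321 ± 0.07 CPM with Hlc dsRNA and 0.245 ± 0.09 CPM in control (0.37, adjusted p 0.545). The names give the snRNA each is known to modify. PsiU1-6 was at 0.186 ± 0.10 CPM with Hlc dsRNA and 0.107 ± 0.04 CPM in control (0.68, adjusted p 0.416). PsiU2-55 had 16 and 24 counts with dsRNA 2 and 38 and 48 with dsRNA 3, against 2 and 13 in the controls (1.56, SE 0.71, adjusted p 0.0942). All 4 overlapped between groups. PsiU2-55 was called without control replicate 2 (log2 fold change 3.19, adjusted p 0.0254), and on library size alone both it (2.12, adjusted p 0.0323) and MeU5-C46 (0.84, adjusted p 0.0433) were called higher.

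The snoRNAs were then set beside the genes that hold them, since most share a primary transcript with a host. The annotation placed 236 snoRNAs within 82 hosts on the same strand, and 79 tested snoRNAs had a tested host, 43 hosts in all. Of those hosts 30 were lower and 13 higher, and on library size alone 27 were lower and 14 higher. After TMM scaling 32.6% of all features tested were lower and 32.2% higher. Among the 33 snoRNAs called higher with a tested host, 28 lay in hosts that were lower and 5 in hosts that were higher. The snoRNAs that were not called also lay mostly in lower hosts, 35 beside 9 in higher ones. The median log2 fold change was 1.39 for the 79 snoRNAs and -0.88 for their hosts counted once per snoRNA, and 72 of the 79 lay above their own host. That count includes snoRNAs whose rise was fixed by the filter. Of the 22 that passed on both controls, in 16 hosts, 17 lay above their host, with a median of 0.88 beside a host median of -0.88. Across the 79, which share libraries and often a host, Pearson's r between snoRNA and host was 0.0024 and Spearman's rho -0.084, as a description.

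Hosts coding for ribosomal proteins accounted for 47 of these snoRNAs in 23 genes. All 23 hosts were lower under each scaling, with a median log2 fold change of -0.98 after TMM scaling and -0.40 on library size alone. Of their 47 snoRNAs, 24 rose, 1 fell and 22 were not called, and 46 of 47 lay above their host. These counts too include snoRNAs whose rise was fixed by the filter, such as Me28S-A2113 in RpL30. In the other hosts, 32 snoRNAs in 20 genes had a median of 1.17 beside a host median of -0.21. Not every tested member of a host was called. RpS16 had 4 of 5 tested snoRNAs called higher, RpS5a 3 of 8 and kra, a translation factor gene, 2 of 8. Of all features tested 32.2% were called higher, and no test of the difference between members of a host was made. The log2 fold change of kra was -0.21 and turned to 0.37 on library size alone.

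**Figure D5:**
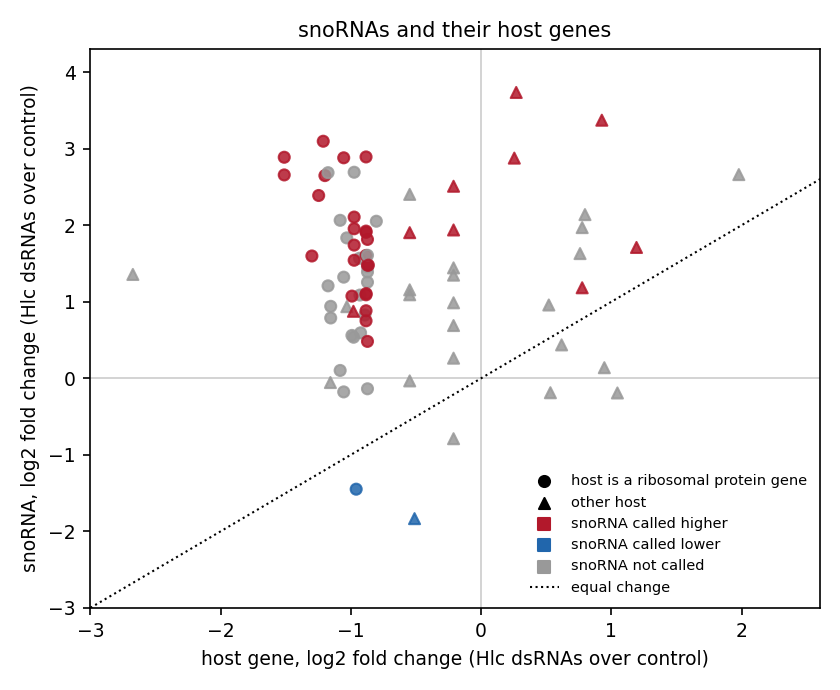
Log2 fold change of 79 tested snoRNAs (vertical axis) against that of the host gene on the same strand (horizontal axis), both for Hlc dsRNAs over control, with circles for ribosomal protein hosts and triangles for other hosts. Points above the dotted line of equal change, 72 of 79, rose more or fell less than their host, and the circles lie left of 0. The 72 include snoRNAs whose rise was fixed by the filter, and of the 22 that passed on both controls 17 lie above the line.

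The noncoding Uhg genes, whose introns carry snoRNAs and whose spliced RNA codes for no protein, were mostly lower after TMM scaling. Of 6 tested, 5 were lower and 1 was higher (median -0.66), and on library size alone 2 were lower and 2 higher. After TMM scaling 32.6% of all features tested were lower and 32.2% higher. Uhg8 was at 4.16 ± 0.30 CPM with Hlc dsRNA and 14.7 ± 1.65 CPM in control (log2 fold change -1.82, adjusted p 7.42e-06) and Uhg2 at -1.03 (adjusted p 0.000951), and Uhg5 rose by 0.80 (adjusted p 0.0052). The 48 snoRNAs in Uhg genes were sparse: 8 were tested and 2 of them rose. The 21 snoRNAs in no gene on the same strand gave 6 tested, of which 3 rose. The rises in both sets include snoRNAs with too few control counts to pass the filter on both controls. For these a rise was favoured by the selection. One was Me28S-A982b in Uhg4, with 9 counts over the controls. The rises in these sets therefore cannot be compared with the 32.2% of all features called higher.

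The dsRNAs were also compared with control one at a time, with the same controls in both contrasts. With dsRNA 2, 31 snoRNAs rose and 1 fell and 7 snRNAs fell, where 60.7% of all features were called, 30.4% higher and 30.3% lower. With dsRNA 3, 26 snoRNAs rose and 3 fell and 9 snRNAs fell, where 61.6% were called, 29.9% higher and 31.6% lower. Psi28S-2444 fell with each, and CG32479-a and Me28S-U1230 with dsRNA 3. The 3 falls with dsRNA 3 numbered 1 under DESeq2, upper-quartile scaling, no filter, the stricter filter, the replicate block and each fit that left out a library, and 0 on library size alone. The median log2 fold change of the tested snoRNAs was 1.47 with dsRNA 2 and 1.24 with dsRNA 3, and that of the snRNAs was -2.56 and -2.60. Psi18S-531 was at 1.84 and 1.58 and 7SK at -2.22 and -2.66. The dsRNA 2 count of snoRNAs called higher was 9 without dsRNA 2 replicate 1, 10 without its replicate 2, 18 without dsRNA 3 replicate 1 and 17 without control replicate 1. The dsRNA 3 count was 6 without dsRNA 3 replicate 1, 13 without its replicate 2, and 17 and 16 without replicates 1 and 2 of dsRNA 2.

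Between the dsRNAs directly, 0 of the 104 tested members were called by edgeR, where 0.0797% of all features were (0.0177% higher and 0.062% lower with dsRNA 3). At an unadjusted p of 0.05, 2 snoRNAs, 1 snRNA and 0 scaRNAs passed. limma-voom called 0 members too, where it called 2.9% of all features. DESeq2 called 10.9% of all features and 0 members, but it gave no adjusted p for 88 of the 89 snoRNAs, the 11 snRNAs or the 4 scaRNAs. The median log2 difference of dsRNA 3 minus dsRNA 2 was -0.06 for snoRNAs and -0.25 for snRNAs.

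Protein genes that make, carry or degrade these RNAs were read from the same fit. Each count of them called stands beside 32.2% of all features tested called higher and 32.6% lower. Proteins of the snoRNA particles were higher: 7 of 8 core proteins rose and none fell (median log2 fold change 1.01). They included hoip, the C/D protein that binds the kink-turn (153 ± 40.5 CPM with Hlc dsRNA, 37.8 ± 3.15 CPM in control, log2 fold change 1.98, adjusted p 6.94e-06), Nop56 (1.10), nop5 (0.93) and Nop60B (0.76). Of 10 assembly factors 7 rose and 2 fell, with pont and rept, ATPases that help to build the particles, at 0.80 and 0.74, Nopp140 at 0.69 and Nop17l at -1.37. These 8 named genes kept their sign under every scaling. The other assembly factor that fell, WDR79, was at -0.46 and turned to 0.13 on library size alone.

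Genes for proteins of the snRNA particles were mostly higher. Of 18 tested genes for Sm, SMN complex and snRNP proteins, 12 rose and 1 fell (median 0.60), with snRNP-U1-70K at 0.79, SmD1 and SmD2 at 0.66 and SmF at 0.63. The 1 that fell was Phax, an adaptor for snRNA export (-0.30, which turned to 0.28 on library size alone). Of 6 factors that act at snRNA promoters, 3 rose and 1 fell (median 0.40), beside 32.2% and 32.6% of all features. Pbp95 of the snRNA activator complex was at 0.68 (adjusted p 0.00126), Tbp at 0.47 and Brf at 0.29, and Bdp1 was at -0.53 (0.05 on library size alone). Of the Integrator genes 5 were higher, 4 were lower and 5 not called of 14 (median 0.05), shares near those of all features (32.2% higher and 32.6% lower). The deepest fall there was that of omd, at 41.3 ± 2.48 CPM with Hlc dsRNA and 85.3 ± 5.47 CPM in control (-1.05, adjusted p 8.67e-06), while IntS6 was at 0.58, IntS1 at 0.45 and IntS2 at -0.45 (0.13 on library size alone). On library size alone 11 Integrator genes were called higher and 1 lower.

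Among the partners of 7SK, the 3 proteins that bind or cap it rose, Larp7 by 1.12, bin3 by 1.05 and Hexim by 0.84. Cdk9, the P-TEFb kinase, was lower at 24.03 ± 2.58 CPM with Hlc dsRNA and 70.3 ± 1.44 CPM in control (-1.55, adjusted p 1.25e-06), and so was its cyclin CycT (-0.44, which turned to 0.14 on library size alone). Of 13 genes of the nuclear exosome and the noncanonical poly(A) polymerases, 10 rose and 1 fell (median 0.55). Rrp46 rose by 1.68, Ski6 by 1.40, Csl4 by 1.04 and Rrp40 by 0.94, all exosome subunits. The polymerase Trf4-1, which adds short tails in the nucleus, was at -0.35 (0.23 on library size alone). Where these proteins and the small RNAs moved together, the part of one in the other was not tested.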

How the data were processed

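The authors deposited whole-number counts for each annotated feature in 1 table, unnormalized, with a column for each library. Per the submitters' processing notes, the tools were Trimmomatic 0.36, TopHat2 2.1.0 and StringTie 2.1.7 with build BDGP6, whose roles are not stated. How reads were counted, with or without strand, and how those matching several places were treated, is not given in the sources used here, so counts of near-identical copies are uncertain. Per the labels, a TruSeq kit was used.

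Features were kept by filterByExpr (minimum count 10), scaled by TMM and fitted in edgeR 4.0.16 (R 4.3.3) in 1 quasi-likelihood model of 6 libraries with a term per group and 3 residual degrees of freedom. P-values were adjusted by Benjamini-Hochberg over all 11293 features tested, and SE was computed as the absolute log2 fold change over the root of the F statistic. The contrast of both Hlc dsRNAs is the mean of dsRNA 2 and dsRNA 3 minus control. Alternatives were other scalings, other filters, DESeq2 1.42.0, limma-voom (limma 3.58.1), a replicate block, fits of only the groups compared and each library left out. Libraries of a group differed beyond counting error (chi-square over its degrees of freedom 22.8 to 39.8), so each counted as 1. The fit was tested on simulated data.

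Positions, lengths and hosts came from the Ensembl annotation of BDGP6.54, release 115, which placed 305 of the 336 members. A host is the smallest gene on the same strand that contains the member. Box class rests on names alone: Psi and aca names are H/ACA, and Me, CD and U-numbered names C/D. Of the tested members 2 share exonic bases with another gene. The rule named Hlc, every tested snRNA and scaRNA, the 10 most abundant snoRNAs, the 10 largest rises and falls called that averaged 50 counts or more in whichever group was higher, their hosts, and up to 4 genes of each list by adjusted p. Other genes were named after their values were seen. Members and lists were chosen with earlier results of these data known. The simulated test, the counting intervals and the SE cover no error in how reads were assigned.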

Additional observations from a re-analysis of the deposited data

Results flagged for a closer look

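Both libraries of dsRNA 2 lay on one side of the controls and both of dsRNA 3 on the other for 2 members, each on few counts. snRNA:U4:39B, which lies inside Atg18b, had 8 and 5 counts with dsRNA 2 and 14 and 16 with dsRNA 3, against 7 and 6 in the controls. The log2 difference of dsRNA 3 minus dsRNA 2 was 1.07 (1.0682), which edgeR did not call (adjusted p 0.471). snoRNA:Psi28S-1135a, an H/ACA RNA within RpS5a, had 8 and 4 counts with dsRNA 2 and 11 and 16 with dsRNA 3, against 6 and 8 in the controls. Its log2 difference was 1.01 (1.0145), also not called (adjusted p 0.501).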

How the results depend on the processing

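Scaling, filter and test moved the counts of called members more than their direction. On library size alone, where the median of all features was 0.62, snoRNAs called higher numbered 58 with both dsRNAs (1 lower), 52 with dsRNA 2 and 47 with dsRNA 3, and C/D snoRNAs 13; the signs of Bdp1 (0.0508) and IntS2 (0.1316) turned. With 1 CPM required in 4 libraries, 11 snoRNAs and 1 snRNA were tested. Of these 9 snoRNAs (9 H/ACA, 0 C/D) rose and 0 fell with both, 8 rose with dsRNA 2 and 9 with dsRNA 3, and 1, 0 and 1 snRNA fell. DESeq2 called 30 snoRNAs higher and 1 lower, and limma-voom 28 higher. Leaving out 1 library gave 16 to 21 snoRNAs higher and 1 lower, 12 to 17 H/ACA and 2 to 4 C/D higher, 9 to 22 with dsRNA 2 and 6 to 19 with dsRNA 3; snRNAs lower were 8 to 9 with both, 6 to 7 with dsRNA 2 and 8 with dsRNA 3, and 0 members differed between the dsRNAs. Such fits have fewer libraries, and a lone library is assumed to vary like the others.

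With the replicate number as a block, 23 snoRNAs were higher and 1 lower (17 H/ACA, 4 C/D), with 18 and 17 for dsRNA 2 and 3, and 9 snRNAs were lower. Same-numbered libraries did not deviate together (correlations -0.0322, -0.0446 and 0.00344 over 11293 features), so they share only a number. All 23 were among the 37. In 427 fits of 32 named members (at most 14 alternatives each), 385 kept sign and side of the threshold, 34 lost a call and 4 gained one. In 4 the sign of an uncalled value turned: Me28S-U1230 on library size alone, U4:39B without dsRNA 3 replicate 1 or control replicate 2, and MeU5-C46 without control replicate 1. Depth limits the rest: 232 of 336 members had too few counts to test.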
